A study of Mus musculus with 13 samples.

Results

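Ribosome biogenesis genes encode the proteins that transcribe, modify, cut and package ribosomal RNA into ribosomal subunits. The set described here holds 40 such genes, and a gene was taken where the gene name printed for a probe in the scanner files was the same as the name in the set. All 40 genes were found, among 25395 genes and transcripts that passed the filter on dim probes. They had 56 of the 55681 different probes, and the brightest of a gene's probes stood for it. All 56 probes were well above background on all 13 arrays and none was saturated, so no member was lost to the filter.

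The arrays measured messenger RNA in colorectal tissue of CPC-Apc mice (CDX2P-NLS Cre;Apc+/loxP), in which a Cre recombinase driven by the CDX2 promoter removes 1 copy of Apc, the tumor suppressor that restrains Wnt signalling. All mice of all groups carried this genotype. The groups were microRNA tumor (2 arrays) and microRNA normal (2 arrays), from mice injected with miR-200c, miR-302a, b, c and d and miR-369-3p and -5p, and control tumor (7 arrays) and control normal (2 arrays), from mice that received a negative control microRNA. Mice were 8 weeks old at the start, and 24 tail vein injections were given on super carbonate apatite, 3 in a week, each holding 25 µg per microRNA. The age at collection is not given in the labels. The labels do not tie samples to mice, so the p-values below measure the spread between these samples, and tumors may share a mouse.

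Ribosome production begins in the nucleolus, where RNA polymerase I copies the ribosomal DNA repeats into a long precursor. Small nucleolar ribonucleoproteins then modify that precursor, and assembly factors cut it and fold it with ribosomal proteins into the small and the large subunit. The transcription factor Myc is known to raise the expression of many of these factors, and the Wnt pathway, which Apc loss switches on in intestinal epithelium, is known to raise Myc.

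A level is given here as the log2 of a probe's processed signal minus the log2 of the 75th percentile of all signals on that array. A difference of 1 between levels is therefore a doubling relative to that percentile. On each array 50.7% to 57.0% of probes stood well above background. The 75th percentile itself was 415 to 740 units on the 9 tumor arrays and 214 to 320 units on the 4 normal arrays, so how the arrays are scaled bears on every comparison of tumor with normal tissue. Slide 1 held 8 arrays, and slide 2 held 5, namely microRNA tumor 1, control tumor 3, microRNA normal 1 and both control normal arrays. All 8 epithelial markers (such as Epcam and Krt8) were well above background on all arrays. The tissues were bulk samples, in which fewer cells of a type and less RNA per cell cannot be told apart.

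The probes behind the members that the results turn on are shown to make plain what was measured. They are 60 bases long, in the files' mm9 coordinates, and no exon annotation of that build was used here. The 4 probes below represent Ncl (chr1:88247953-88248012, minus strand), Nop56 (chr2:130104982-130105041, plus strand), Tsr1 (chr11:74722413-74722472, plus strand) and Myc (chr15:61821417-61821476, plus strand).
Ncl: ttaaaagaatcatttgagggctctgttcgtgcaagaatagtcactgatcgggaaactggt
Nop56: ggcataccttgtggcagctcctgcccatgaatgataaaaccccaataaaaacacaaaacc
Tsr1: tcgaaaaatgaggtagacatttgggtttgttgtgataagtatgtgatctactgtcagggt
Myc: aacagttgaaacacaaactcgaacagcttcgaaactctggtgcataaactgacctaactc

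Most of the ribosome biogenesis genes were higher in tumors than in normal tissue. Over both groups of mice, 23 of the 40 members rose in tumors at an adjusted p under 0.05, none fell, and 17 did not pass. Of all 25395 genes, 11.7% rose in tumors and 19.7% fell in the same fit. The members' median log2 difference was 0.68, against -0.11 for all genes tested, and 37 members lay above 0. None of the 3 members below 0 had an unadjusted p under 0.05. Differences of the 23 that rose ran from 0.53 (Nop16, 1.44-fold) to 1.23 (Rrp1b, 2.35-fold). For 21 members every one of the 9 tumors was above every one of the 4 normal tissues, a pattern seen in 6.89% of all genes. These were the members that rose except Npm1, Nolc1 and Nop16, together with Nhp2.

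The test was limma's moderated test on all 13 arrays, with tissue and treatment as terms and Benjamini-Hochberg adjustment over all genes. With the slide as a block 28 members rose, where 13.8% of all genes did, among them 20 of the 23 (not Nolc1, Polr1a and Nop2). On slide 2 alone 19 rose, where 9.06% of all genes did. Slide 1 held 1 normal array, microRNA normal 2. With treatment as a term, the tumor effect on slide 1 alone was microRNA tumor 2 minus that array. The control tumors on slide 1 added nothing to that difference. The members' median there was 0.40, against -0.14 for all genes. The count of members that rose rested in part on the few normal arrays. It was 14 without control normal 1 (6.9% of all genes rose), 14 without control normal 2 (5.57%) and 15 without microRNA normal 1 (8.52%). With all 13 arrays 11.7% of all genes rose. In each of these cases all members called were among the 23.

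**Figure D1:**
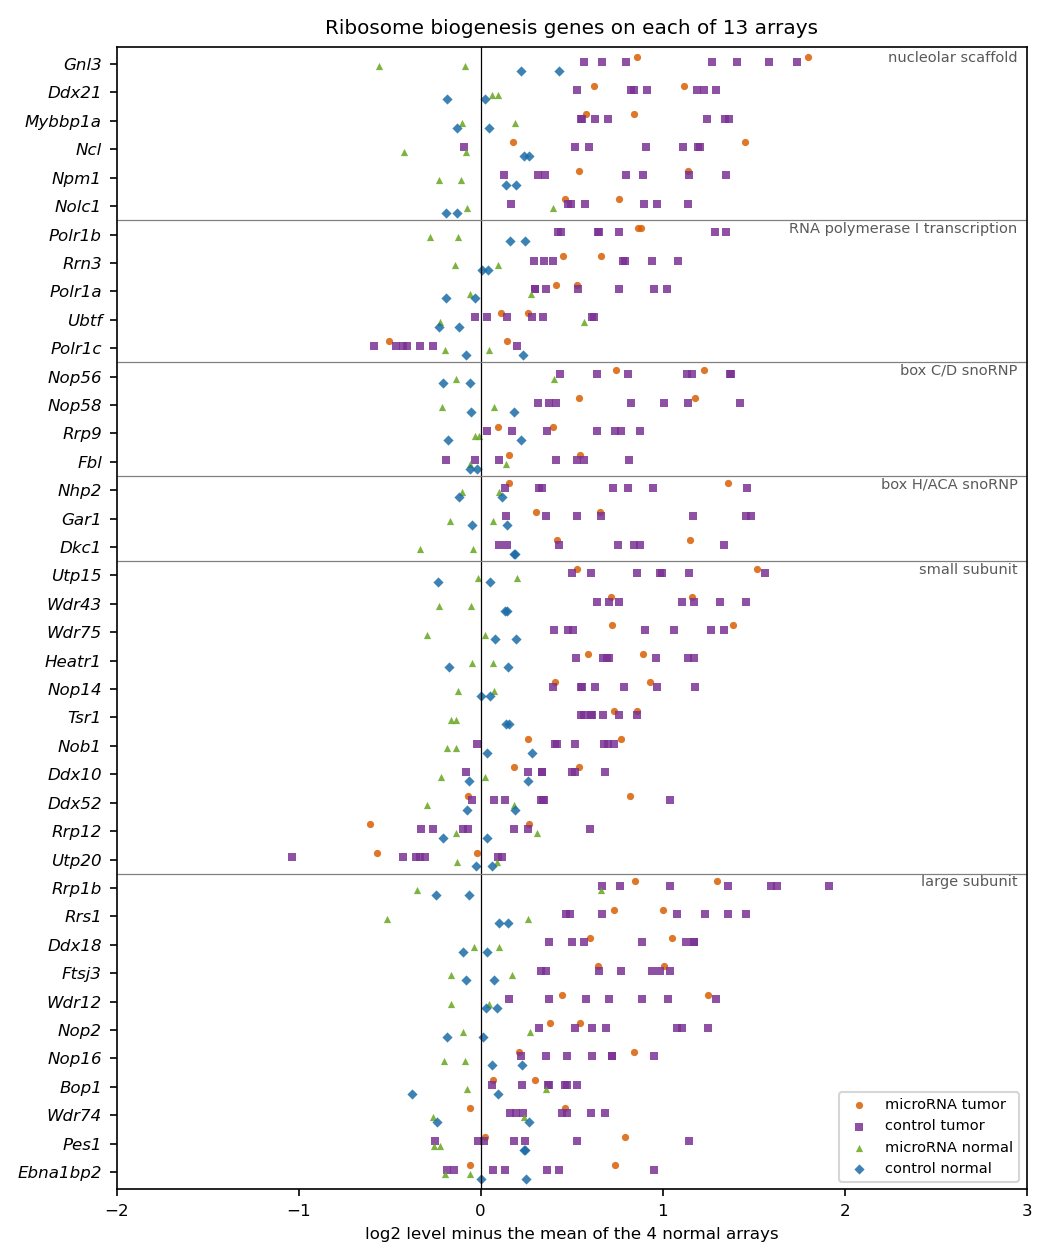
Level of each of the 40 genes on each of the 13 arrays, as the log2 difference from the mean of the 4 normal arrays (x axis), with genes grouped by role and ordered by tumor effect within each role. Circles are microRNA tumors, squares control tumors, triangles microRNA normal tissue and diamonds control normal tissue. For 21 genes all 9 tumors lie to the right of all 4 normal arrays.

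The nucleolar scaffold and multifunctional proteins rose in 5 of 6 cases. The share of all genes that rose, to set beside this count and those of the other roles below, was 11.7%. Gnl3 (nucleostemin), a nucleolar GTP-binding protein abundant in stem and tumor cells, had levels of 1.42 and 0.48 in microRNA tumors and 0.19, 0.89 and 1.36 (lowest, median and highest) in control tumors, against -0.94 and -0.47 in microRNA normal tissue and 0.05 and -0.16 in control normal tissue. Its log2 difference was 1.15 ± 0.29 (SE; adjusted p = 0.0118). No tumor overlapped a normal tissue, and the microRNA normal tissues were the lowest of all. Ddx21, an RNA helicase that links RNA polymerase I transcription to processing, had 2.30 and 1.81 in microRNA tumors and 1.72, 2.10 and 2.48 in control tumors, against 1.25 and 1.28 in microRNA normal and 1.00 and 1.21 in control normal tissue. The difference was 0.95 ± 0.18 (adjusted p = 0.00324), again with no overlap. Mybbp1a, a nucleolar protein that takes part in ribosomal RNA processing, and Nolc1, a chaperone of small nucleolar ribonucleoproteins, rose by 0.84 and 0.69.

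Npm1 (nucleophosmin), a chaperone of ribosomal proteins and histones, had 6.56 and 5.96 in microRNA tumors and 5.55, 6.22 and 6.77 in control tumors, against 5.32 and 5.19 in microRNA normal and 5.56 and 5.62 in control normal tissue. It rose by 0.73 ± 0.25 (adjusted p = 0.0408), and its lowest tumor lay just below the control normal tissues. Ncl (nucleolin), an RNA-binding protein of the nucleolus, had 5.73 and 4.46 in microRNA tumors and 4.18, 5.18 and 5.49 in control tumors, against 4.20 and 3.86 in microRNA normal and 4.54 and 4.51 in control normal tissue. Its difference of 0.74 ± 0.29 did not pass (adjusted p = 0.071), and 2 tumors lay below both control normal tissues. A second, dimmer Ncl probe gave a difference of 0.73 ± 0.23.

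Among the genes of RNA polymerase I transcription 3 of 5 rose. Polr1b, the second largest subunit, had 0.69 and 0.67 in microRNA tumors and 0.23, 0.46 and 1.16 in control tumors, against -0.32 and -0.47 in microRNA normal and -0.03 and 0.05 in control normal tissue, a difference of 0.78 ± 0.21 (adjusted p = 0.0151). Rrn3, the factor that brings the polymerase to the ribosomal DNA promoter, had 2.13 and 1.92 in microRNA tumors and 1.76, 2.25 and 2.55 in control tumors, against 1.32 and 1.56 in microRNA normal and 1.51 and 1.47 in control normal tissue, a difference of 0.62 ± 0.18 (adjusted p = 0.0216). Polr1a, the largest subunit, had 2.08 and 1.96 in microRNA tumors and 1.84, 2.08 and 2.57 in control tumors, against 1.49 and 1.82 in microRNA normal and 1.35 and 1.51 in control normal tissue. Its difference of 0.58 ± 0.19 passed (adjusted p = 0.0329), although the gap between its lowest tumor and its highest normal tissue was small. Polr1c, a subunit shared with RNA polymerase III, was one of 3 members below 0, with a difference of -0.28 ± 0.19 (adjusted p = 0.252).

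Ubtf, which binds the ribosomal DNA promoter, is a case in which the choice of probe mattered. Its brightest probe (chr11:102166995-102167054, minus strand, mm9) opens with an unbroken repeat of TG, in capitals here, while its other probe (chr11:102167265-102167324, minus strand) has none.
Ubtf, brightest probe: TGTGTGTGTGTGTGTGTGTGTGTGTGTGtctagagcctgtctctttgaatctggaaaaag
Ubtf, other probe: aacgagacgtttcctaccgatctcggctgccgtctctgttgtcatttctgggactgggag
The brightest probe read 6.67 and 6.82 in microRNA tumors and 6.53, 6.84 and 7.18 in control tumors, against 6.34 and 7.13 in microRNA normal and 6.33 and 6.45 in control normal tissue. Its difference was 0.29 ± 0.20 (adjusted p = 0.276), and the groups overlapped. After quantile normalization the same probe had a difference of 0.80 and passed (adjusted p = 0.0247). The other probe gave a difference of -0.01. The repeat is 28 bases long, and the longest such run in any other member probe is 6 bases. Over the whole array, 71 probes held a TG or CA run of at least 20 bases, all of them passed the filter, and their median level was 5.23 against -3.82 for all probes. How far the repeat sets the signal of the Ubtf probe was not tested.

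Of the box C/D ribonucleoproteins, which guide methylation of ribosomal RNA, 2 of 4 rose. Nop56, a core protein of these particles, had 4.75 and 4.26 in microRNA tumors and 3.95, 4.65 and 4.89 in control tumors, against 3.38 and 3.92 in microRNA normal and 3.31 and 3.46 in control normal tissue. Its difference of 1.02 ± 0.22 passed (adjusted p = 0.00561), and its 2 other probes gave 1.00 and 0.94. Nop58, its partner, had 3.65 and 3.02 in microRNA tumors and 2.79, 3.30 and 3.90 in control tumors, against 2.27 and 2.55 in microRNA normal and 2.43 and 2.66 in control normal tissue, a difference of 0.80 ± 0.23 (adjusted p = 0.0229). Fbl (fibrillarin), the methyltransferase of the same particle, had 4.10 and 3.71 in microRNA tumors and 3.36, 3.97 and 4.37 in control tumors, against 3.49 and 3.69 in microRNA normal and 3.53 and 3.50 in control normal tissue. The Fbl groups overlapped, and its difference of 0.34 ± 0.20 did not pass (adjusted p = 0.208). Rrp9, which binds the small nucleolar RNA needed for cleavage of the precursor, had 0.67 and 0.37 in microRNA tumors and 0.31, 0.91 and 1.15 in control tumors, against 0.24 and 0.26 in microRNA normal and 0.09 and 0.49 in control normal tissue. Its groups overlapped, and its difference was 0.40 ± 0.19 (adjusted p = 0.12).

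The 3 box H/ACA proteins, which convert uridine to pseudouridine in ribosomal RNA, had differences close to the members' median but with wider errors. Dkc1 (dyskerin), the pseudouridine synthase, Gar1 and Nhp2 had log2 differences of 0.66 ± 0.25, 0.68 ± 0.27 and 0.71 ± 0.27, with adjusted p of 0.0619, 0.0671 and 0.0643. None passed. Gar1 had 3.71 and 3.36 in microRNA tumors and 3.19, 3.71 and 4.54 in control tumors, against 3.12 and 2.88 in microRNA normal and 3.00 and 3.20 in control normal tissue, so its control tumors alone spread over more than 1 log2 unit.

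Factors of the small subunit rose in 6 of 11 cases. Utp15, part of the complex that joins transcription of the precursor to its processing, had -1.74 and -2.73 in microRNA tumors and -2.76, -2.28 and -1.70 in control tumors, against -3.06 and -3.28 in microRNA normal and -3.50 and -3.21 in control normal tissue, a difference of 1.00 ± 0.23 (adjusted p = 0.00789). After normexp background correction, another treatment of the background, the difference of Utp15 was 0.05 (adjusted p = 0.814), and it was the only one of the 23 whose call that correction ended. Wdr43, of the same complex, had 2.08 and 1.64 in microRNA tumors and 1.56, 2.03 and 2.38 in control tumors, against 0.69 and 0.87 in microRNA normal and 1.07 and 1.05 in control normal tissue, a difference of 0.96 ± 0.19 (adjusted p = 0.00396). Wdr75 and Heatr1, which belong to that complex too, rose by 0.90 and 0.80. All 4 of these genes were higher in every tumor than in every normal tissue. Nop14 and Tsr1, a late assembly factor, rose by 0.70 and 0.68.

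The other 5 small subunit factors did not pass. Utp20, a large scaffold protein, had the lowest difference of all members, -0.32 ± 0.21 (adjusted p = 0.268), and Rrp12, an export and assembly factor, had -0.02 ± 0.22. The helicases Ddx10 and Ddx52 had 0.34 and 0.33, and Nob1, the nuclease that makes the end of the small subunit RNA, had 0.47 ± 0.18 (adjusted p = 0.0624). Without any scaling the differences of all genes were higher, by a median of 0.995, which put Utp20, Polr1c and Rrp12 at 0.68, 0.71 and 0.97, against 0.89 for the median of all genes.

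Factors of the large subunit rose in 7 of 11 cases. Rrp1b, a nucleolar protein of large subunit assembly, had -0.79 and -0.34 in microRNA tumors and -0.97, -0.28 and 0.28 in control tumors, against -1.98 and -0.98 in microRNA normal and -1.70 and -1.88 in control normal tissue. Its difference was 1.23 ± 0.28 (adjusted p = 0.0074), and microRNA normal 2 lay just below the lowest tumor. This was the largest difference of the members with the main scaling, but Nop56 had a larger one than Rrp1b after quantile normalization (1.24 against 1.21) and normexp (1.11 against 0.80), and Gnl3 had with the slide as a block (1.43 against 0.87). Rrs1, which helps to dock a small ribosomal RNA particle into the large subunit, had 1.86 and 1.59 in microRNA tumors and 1.32, 1.93 and 2.31 in control tumors, against 0.34 and 1.12 in microRNA normal and 1.00 and 0.96 in control normal tissue, a difference of 0.90 ± 0.23 (adjusted p = 0.0139). Ddx18, Ftsj3, Wdr12, Nop2 and Nop16 rose by 0.84, 0.77, 0.76, 0.68 and 0.53. Wdr12 forms a complex with Bop1 and Pes1, and the differences of those partners were 0.32 ± 0.17 (adjusted p = 0.157) and 0.27 ± 0.26 (adjusted p = 0.441). Wdr74 and Ebna1bp2 had 0.32 and 0.25 and did not pass.

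Each group of mice was then taken by itself. In control mice 11 members rose in tumors and none fell, where 8.18% of all genes rose and 10.9% fell. The 11 were Nolc1, Mybbp1a, Ddx21, Nop56, Wdr43, Utp15, Heatr1, Tsr1, Nop2, Rrp1b and Ddx18, and all of them had risen over both groups. The members' median difference was 0.65, against -0.09 for all genes. In microRNA mice Tsr1 alone rose, by 0.95 ± 0.20 (adjusted p = 0.0287), where 1.42% of all genes rose and 1.76% fell. The members' median there was 0.69, against -0.14 for all genes, and it was 0.43 without microRNA tumor 1 and 0.94 without microRNA tumor 2. A total of 37 members lay above 0 in both groups of mice, and 21 had the larger difference in microRNA mice. In control mice 23 members had every tumor above every normal tissue, where 14.7% of all genes did, and in microRNA mice, with 2 arrays a group, 32 did, where 20.4% of all genes did.

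The counts in each group of mice rested on few arrays. The 7 control tumors carry 3 numbers in their file names, 4 of them the same one, and what these numbers mark is not stated. With 1 control tumor kept for each number no member was called in control mice, where 1.78% of all genes rose. In control mice 5, 6 and 4 members were called without control tumor 4, 6 and 7 (5.38%, 5.95% and 5.16% of all genes rose). The slide as a block left 6 (4.21%). Without control normal 1 or control normal 2, which left 1 control normal array, the members' median difference was 0.579 and 0.655. On slide 2 alone, with 1 control tumor, it was 0.816. In microRNA mice Tsr1 was no longer called when each of the 4 arrays was left out in turn, and a block for the slide gave 3 members (2.77% of all genes rose).

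**Figure D2:**
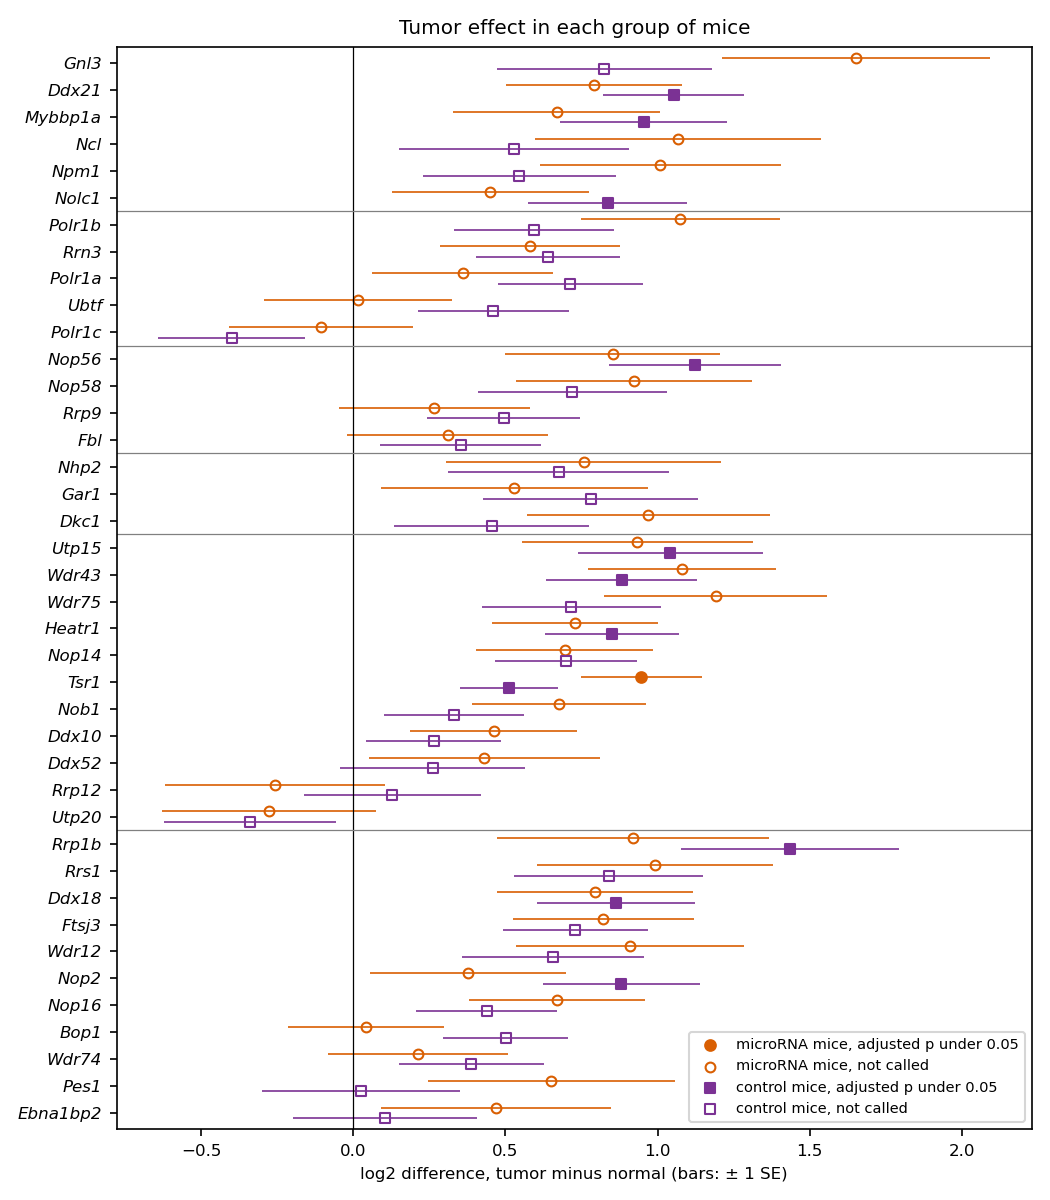
Tumor effect of each of the 40 genes, as the log2 difference of tumor minus normal tissue (x axis, with bars of 1 SE), in microRNA mice (circles) and in control mice (squares). Filled symbols have an adjusted p under 0.05. Tsr1 alone is filled for microRNA mice and 11 genes are filled for control mice, and the bars of both groups overlap for most genes.

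No ribosome biogenesis gene passed the test for an effect of the microRNA injections. In tumors (microRNA tumor against control tumor) none of the 40 members was called, where 0.00394% of all genes were, and none had an unadjusted p under 0.05. The members' median difference was -0.002, with 19 above 0, and all lay between -0.35 (Gar1) and 0.20 (Wdr75). That median lies between microRNA tumors that went opposite ways: it was -0.25 without microRNA tumor 1 and 0.21 without microRNA tumor 2. The median size of the difference regardless of sign was 0.10 for the members and 0.21 for all genes. The smallest unadjusted p were those of Nop2 (-0.33 ± 0.26), Rrp9 (-0.27 ± 0.25) and Gar1 (-0.35 ± 0.35). Nop2, a methyltransferase of the large subunit RNA, had 3.31 and 3.15 in microRNA tumors and 3.09, 3.46 and 4.02 in control tumors, against 2.67 and 3.04 in microRNA normal and 2.58 and 2.79 in control normal tissue. With 2 microRNA tumors these errors do not show that the groups were alike.

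In normal tissue (microRNA normal against control normal) none of the members was called either, where 0.532% of all genes were, and none had an unadjusted p under 0.05. Their median difference was -0.05, against 0.04 for all genes, and they ran from -0.65 (Gnl3) to 0.34 (Ubtf). Tsr1 had 0.86 and 0.83 in microRNA normal tissue, against 1.14 and 1.15 in control normal tissue, a difference of -0.30 ± 0.20. Its tumors had 1.86 and 1.73 in microRNA mice, against 1.55, 1.61 and 1.85 in control mice. Gnl3 and Polr1b had -0.65 ± 0.44 and -0.40 ± 0.33. For 12 members both microRNA normal tissues lay below both control normal tissues and for 2 they lay above, where 18.2% and 22.4% of all genes did so. The normal groups also differed in tissue markers. The summed linear level of 7 squamous epithelium markers was 8.70 to 10.6 in microRNA normal tissue, against 17.2 to 41.9 in control normal tissue (all 7 lower without overlap, 4 called). That of 10 smooth muscle markers was 434 to 469, against 756 to 1059 (all 10 lower without overlap, none called), and that of 4 skeletal muscle markers 1.64 to 2.04, against 4.41 to 6.63 (1 called). The part of these tissues in the members' differences was not tested.

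The difference between the tumor effects (microRNA mice minus control mice) was tested in the same model. It was called for no member, where 0.28% of all genes were called, and no member had an unadjusted p under 0.05. The smallest unadjusted p were those of Tsr1 (0.43 ± 0.26), Gnl3 (0.83 ± 0.56) and Bop1 (-0.46 ± 0.33). Bop1, a scaffold of large subunit assembly, had 2.80 and 2.57 in microRNA tumors and 2.56, 2.88 and 3.03 in control tumors, against 2.42 and 2.86 in microRNA normal and 2.12 and 2.59 in control normal tissue.

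Myc itself rose in tumors. Its levels were 1.58 and 1.03 in microRNA tumors and 0.79, 1.34 and 2.12 in control tumors, against 0.05 and -0.03 in microRNA normal and 0.09 and 0.19 in control normal tissue. No tumor overlapped a normal tissue, and the difference was 1.32 ± 0.25 (2.50-fold; adjusted p = 0.00333). It was 1.29 in microRNA mice and 1.34 in control mice. On slide 1 alone, where only 1 microRNA tumor and 1 microRNA normal array set the difference, it was 1.06. The microRNA effect on Myc was -0.17 ± 0.33 in tumors and -0.13 ± 0.41 in normal tissue.

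The members' median level on an array went with the tissue as Myc did. It was 1.57 to 2.39 on the 9 tumors, against 1.10 to 1.25 on the 4 normal tissues, and Myc was 0.79 to 2.12 against -0.03 to 0.19. Among tumors, control tumors 6, 7 and 4 had the highest Myc levels (2.12, 2.04 and 1.71) and member medians of 2.34, 2.12 and 2.18. Control tumors 1 and 5 had the lowest Myc of their group (0.79 and 1.08) and member medians of 1.66 and 1.64. Control tumor 3 did not follow this order, with the highest member median of all, 2.39, at a Myc level of 1.34. Control tumor 2, at nearly the same Myc level of 1.30, had the lowest member median of the tumors, 1.57. Among microRNA tumors, the first had 1.58 for Myc and 2.22 for the members, and the second had 1.03 and 1.77. Control tumors 4, 6 and 7, which had the highest Myc, carry the same file-name number, and so does control tumor 5. No correlation is given, since the control tumors carry only 3 file-name numbers and are not known to be independent.

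**Figure D3:**
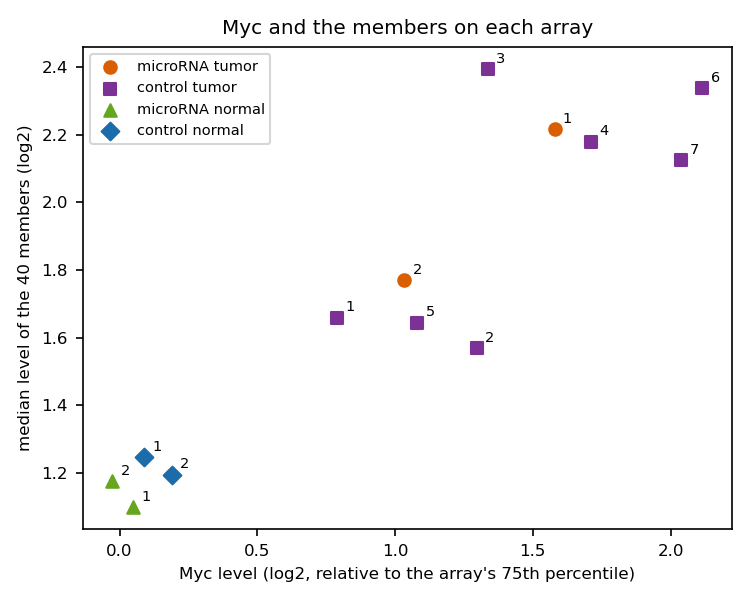
Median level of the 40 members (y axis, log2) against the level of Myc (x axis, log2) on each array, with symbols by group and the replicate number beside each. The 4 normal arrays lie together at Myc levels of -0.03 to 0.19 and member medians of 1.10 to 1.25, and the 9 tumors lie above and to the right of them.

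Partners and relatives of Myc did not move one way. Of 12 genes of the Myc network, 4 rose in tumors and 3 fell, where 11.7% of all genes rose and 19.7% fell. Mycl1 and Mycn, paralogs of Myc, rose by 1.64 ± 0.49 and 1.51 ± 0.49, and Mga, which competes for the same partner, rose by 0.62 ± 0.18 (0.21 after normexp, where it did not pass). Max, the obligate partner of Myc, had levels of 3.33 to 3.61 in the 9 tumors, against 3.88 to 4.46 in the 4 normal tissues, and fell by 0.71 on the log2 scale (SE 0.14, adjusted p = 0.00413). Mxd1, which opposes Myc at shared sites, had 2.52 to 4.21 in tumors, against 4.54 to 5.37 in normal tissue, and fell by 1.52 on the log2 scale (SE 0.33, adjusted p = 0.00595). Mlx, a relative of Max, fell by 0.74 on the log2 scale, and under the other scalings it did not pass as a fall (adjusted p = 0.0524 after quantile normalization). Without scaling, which raised the median of all genes to 0.89, Max, Mlx and Mxd1 were at 0.29, 0.26 and -0.53. Mycn, Mycl1 and Mlx were named after their values were seen, to account for every network gene that was called.

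Changing the constant that scales an array shifted the members together with all other genes, while quantile normalization and normexp moved genes by different amounts. The members' median difference was 0.68 with the 75th percentile of all probes, 0.78 after quantile normalization, 0.80 with the array median, 0.80 with the 75th percentile of probes above background on all arrays, and 0.72 after normexp background correction. The median of all genes was -0.11, 0.02, 0.00, 0.01 and -0.26 under the same settings in the same order. Without any scaling, the members' median was 1.68 and that of all genes 0.89, since tumor arrays were brighter as a whole. The members' median stood 0.76 (quantile) to 0.98 (normexp) above that of all genes under these 6 settings. Of all genes called, 37.3% were higher in tumors with the main scaling, against 51.6% after quantile normalization, 50.8% with the array median, 21.7% after normexp and 95.5% without scaling. All 23 members that rose were also called after quantile normalization and without scaling, where 15.8% and 57.4% of all genes rose. With the array median 21 of them, all but Npm1 and Nop16, were called, where 12.9% of all genes rose. Ncl, Ubtf, Fbl, Gar1, Nhp2 and Bop1, which did not pass with the main scaling, passed after quantile normalization.

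A rank within each array does not depend on a scaling constant. The members' median stood at percentile 72.6 to 79.2 of all genes on the 9 tumors, against 66.7 to 69.1 on the 4 normal tissues, with no overlap. Of the single members, Rrp1b, Gnl3 and Utp15 gained most in mean percentile (12, 11.6 and 11.1 points), and Utp20, Polr1c and Rrp12 lost 3.14, 0.97 and 0.26 points.

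**Figure D4:**
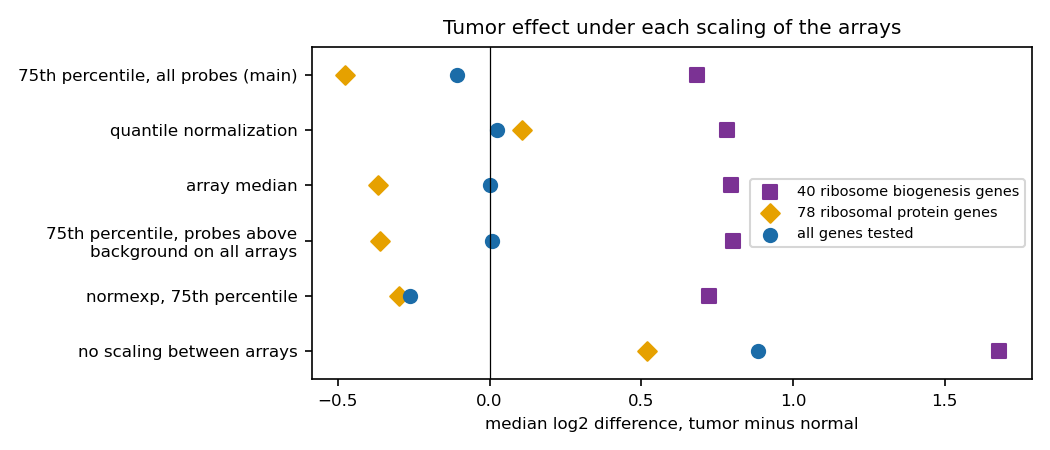
Median log2 difference of tumor minus normal tissue (x axis) under 6 ways of scaling the arrays, for the 40 ribosome biogenesis genes (squares), 78 ribosomal protein genes (diamonds) and all genes tested (circles). The squares lie at 0.68 to 1.68 and to the right of the circles in every row, while the diamonds lie on either side of 0.

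Many other genes of ribosome biogenesis rose as well. Of 112 other genes of the process, 38 rose and 2 fell, where 11.7% of all genes rose and 19.7% fell. Their median difference was 0.41. Mdn1 and Nvl, ATPases that strip factors from the maturing large subunit, rose by 1.35 ± 0.25 and 1.36 ± 0.27, and Gtpbp4 and Lsg1, GTPases of large subunit assembly and export, rose by 0.94 ± 0.18 and 0.87 ± 0.18. After normexp background correction Nvl had -0.15 and Mdn1 had 0.30, and both are dim probes. The 2 that fell, named because they were so few, were Pinx1, a nucleolar inhibitor of telomerase, with -1.60 ± 0.40, and Exosc2, an exosome subunit, with -0.46 ± 0.14. After quantile normalization Exosc2 had 0.19 and did not pass (adjusted p = 0.213).

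The ribosomal proteins themselves did not rise with the assembly factors under the main scaling. Of 78 ribosomal protein genes 24 fell and none rose, where 19.7% of all genes fell and 11.7% rose. Their medians were -0.46 for the small subunit (31 genes) and -0.49 for the large subunit (47 genes). Rps14 had levels of 8.51 to 9.31 in tumors, against 9.19 to 9.89 in normal tissue (difference -0.83 ± 0.20), and Fau, Rps12 and Rpsa fell by 1.00, 0.63 and 0.60 on the log2 scale. For the large subunit Rpl7a, Rplp2 and Rpl8 fell by 0.67, 0.63 and 0.58 on the log2 scale. The direction of both subunits turned with the scaling, since their joint median was -0.48 with the main scaling, 0.11 after quantile normalization (5 rose and none fell) and 0.52 without scaling. None of the 7 genes named here passed as a fall after quantile normalization. The slide moved the joint median too, to -0.19 with the slide as a block and -0.05 on slide 2 alone, and in control mice it was -0.64, against -0.12 and -0.03 under those settings. Their probes were among the brightest, 75 of 78 with a mean level above 6, and none was saturated. The other 746 genes above that level had a median difference of -0.46, with 673 below 0.

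**Figure D5:**
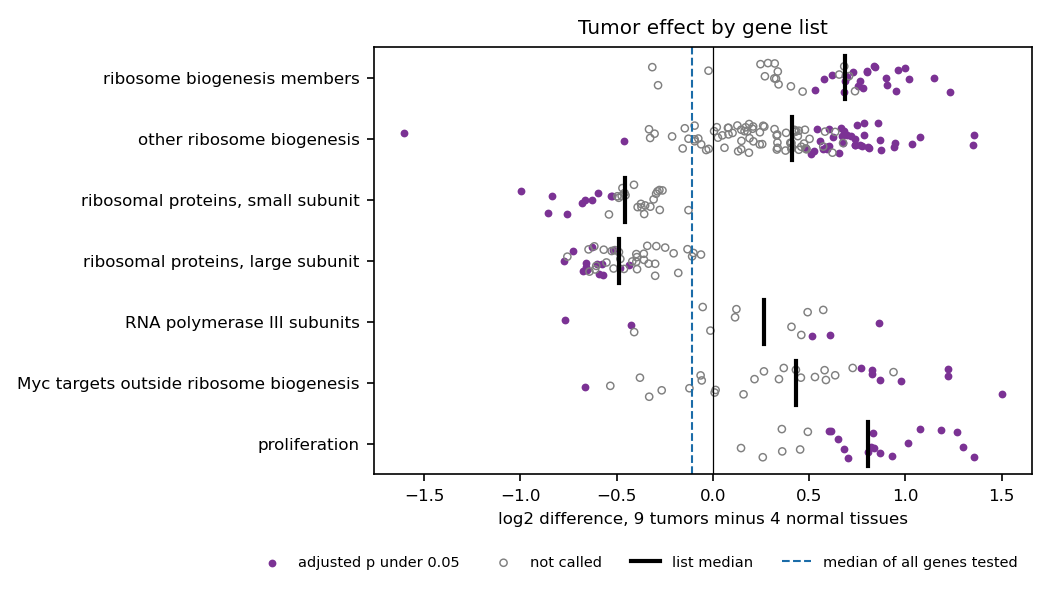
Log2 difference of 9 tumors minus 4 normal tissues (x axis) for each gene of 7 lists (rows). Filled points have an adjusted p under 0.05, bars mark list medians and the dashed line marks the median of all genes tested, -0.11. Medians run from -0.49 for ribosomal proteins of the large subunit to 0.81 for proliferation genes.

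Of 14 genes of RNA polymerase III, which makes transfer RNA and the smallest ribosomal RNA, 3 rose and 2 fell. In the same fit 11.7% of all genes rose and 19.7% fell. Polr3b and Polr3e rose by 0.86 and 0.61, and Polr3d, named to complete the count, rose by 0.51. Polr3c fell by 0.77 on the log2 scale, and Maf1, a repressor of this polymerase rather than a subunit, fell by 0.43. Without scaling they were at 0.23 and 0.57, against 0.89 for the median of all genes. With the array median neither passed (adjusted p = 0.0909 and 0.252), and with the slide as a block none of Polr3c, Maf1, Polr3d and Polr3e did. Of 31 known Myc targets outside ribosome biogenesis 8 rose and 1 fell, with a median of 0.43. Cdk4, a cell cycle kinase, rose by 0.98 ± 0.27, Shmt2, a mitochondrial enzyme of serine metabolism, by 0.83 ± 0.22 and Tert, the telomerase enzyme, by 1.5 ± 0.36. After normexp Tert had 0.27 and did not pass (adjusted p = 0.259). Ldha, which makes lactate, fell by 0.66 on the log2 scale, but had -0.09 after quantile normalization (adjusted p = 0.723).

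Proliferation genes rose beside the members. Of 23 such genes 17 rose and none fell, with a median of 0.81, where 11.7% of all genes rose and 19.7% fell. Top2a, a topoisomerase of dividing cells, rose by 1.36 ± 0.25, the mitotic checkpoint kinases Bub1 and Bub1b by 1.30 ± 0.28 and 1.27 ± 0.22, and Rrm1, which makes DNA precursors, by 1.19 ± 0.24. The summed level of the list, on a linear scale relative to the 75th percentile, was 168 to 302 in tumors, against 135 to 156 in normal tissue. What part the number of dividing cells had in the members' difference was not tested.

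Markers of other cell types moved with the tissue too. All 10 smooth muscle markers fell, and their summed linear level was 43.4 to 261 in tumors, against 434 to 1059 in normal tissue. All 7 adipocyte markers fell (1.54 to 7.80 in tumors, against 27.5 to 50 in normal tissue), and Plin1 was not well above background on any tumor. Of 9 T and NK cell markers 8 fell, of 6 neutrophil markers 5 rose, and of 7 fibroblast markers 3 rose. All 4 skeletal muscle markers fell, as did 5 of 8 enteric neuron and glia markers. Of 7 squamous epithelium markers 4 fell, and of 8 B and plasma cell markers 2 fell. Of 7 macrophage markers 1 rose, and none of 6 endothelium markers was called. Of all genes 11.7% rose and 19.7% fell. Of the 8 epithelial markers 4 fell (summed level 661 to 1267 in tumors, against 1165 to 1751 in normal tissue) and none rose. The part of this change in cell makeup in the members' difference was not tested.

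The promoters of the members were searched for the letters CACGTG, the E-box that Myc and Max are known to bind, which reads the same on both strands. RefSeq promoters (GRCm38.p6, from 250 bases before to 50 bases after the start) matched 35 of the 40 genes, with 43 promoters in all. The E-box was in 7 of these promoters (16.3%), against 7.15% of all 32851 promoters and 9.05% of the 16333 promoters of genes tested. The 7 genes were Nop2, Utp20, Pes1, Mybbp1a, Tsr1, Rrn3 and Wdr43. The promoters of 3 that rose and of Utp20, which did not, are shown with the E-box in capitals. They are Mybbp1a (chr11:72441077-72441376, plus strand), Rrn3 (chr16:13780449-13780748, plus strand), Wdr43 (chr17:71615965-71616264, plus strand) and Utp20 (chr10:88826765-88827064, minus strand).
Mybbp1a: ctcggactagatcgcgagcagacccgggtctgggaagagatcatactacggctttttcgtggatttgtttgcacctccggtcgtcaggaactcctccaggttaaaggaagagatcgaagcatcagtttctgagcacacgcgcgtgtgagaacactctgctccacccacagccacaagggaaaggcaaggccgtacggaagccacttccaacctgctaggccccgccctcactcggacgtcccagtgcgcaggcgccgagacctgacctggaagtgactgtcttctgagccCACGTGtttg
Rrn3: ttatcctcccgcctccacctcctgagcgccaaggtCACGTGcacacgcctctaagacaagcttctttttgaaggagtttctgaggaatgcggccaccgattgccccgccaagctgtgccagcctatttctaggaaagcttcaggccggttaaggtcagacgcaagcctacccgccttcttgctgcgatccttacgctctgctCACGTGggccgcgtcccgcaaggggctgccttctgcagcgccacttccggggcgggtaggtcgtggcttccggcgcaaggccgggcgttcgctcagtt
Wdr43: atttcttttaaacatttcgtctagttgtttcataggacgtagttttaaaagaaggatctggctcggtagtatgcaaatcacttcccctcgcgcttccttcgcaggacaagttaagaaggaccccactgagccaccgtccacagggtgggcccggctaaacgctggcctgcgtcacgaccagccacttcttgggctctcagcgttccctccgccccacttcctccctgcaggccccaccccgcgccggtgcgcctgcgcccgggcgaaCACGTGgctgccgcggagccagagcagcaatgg
Utp20: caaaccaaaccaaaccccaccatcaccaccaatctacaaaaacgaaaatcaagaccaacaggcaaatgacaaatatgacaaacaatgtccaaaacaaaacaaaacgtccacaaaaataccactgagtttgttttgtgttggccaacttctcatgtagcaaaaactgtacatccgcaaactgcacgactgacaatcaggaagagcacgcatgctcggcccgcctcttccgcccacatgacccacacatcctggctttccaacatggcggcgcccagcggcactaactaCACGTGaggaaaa
The E-box begins at base 40, 17 and 37 from the start in Mybbp1a, Wdr43 and Utp20, and at -215 and -48 in Rrn3. Of the members with a promoter, 5 of the 7 genes with the E-box rose, with a median difference of 0.68, and 16 of the 28 genes with no E-box rose, with a median of 0.70. The difference between these sets was not tested. Absence of the letters from this window says nothing of Myc binding elsewhere.

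Other letters were searched on both strands in the same promoters. CACGCG was in 25.6% of member promoters, against 14.8% of those of genes tested, CCGGAAG, the core of an ETS site, in 25.6% against 14.2%, and GGGCGG, a GC box, in 72.1% against 55.2%. TATAAA was in 4.65% of member promoters, against 9.42% of those of genes tested. Shares over all promoters were lower for the first 3 (9.27%, 8.86% and 35.7%) and higher for TATAAA (13.6%). These are counts over 43 promoters, some of them alternative starts of the same gene, such as 6 for Ubtf.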

How the data were processed

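Messenger RNA of 13 colorectal samples was measured on 1-colour mouse arrays, 35 ng of RNA each, per the labels' protocols. Per the file headers, images were read with Feature Extraction 10.7.3.1 on an mm9 design, and the deposited values are linear spot intensity after background subtraction within the array, with no step that makes arrays comparable. The series-wide deposited table repeats these intensity values.

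After 3671 control spots were left out, 55681 different probes remained. From each log2 signal the log2 of that array's 75th percentile was subtracted. Probes well above background on fewer than 2 arrays were dropped, and each gene kept its brightest probe. Lacking a value on some array, as 85 probes did, was no ground to drop a probe, except among the genes with a mean level above 6. Groups came from the sample titles. The test was limma's (version 3.58.1, functions lmFit and eBayes, R 4.3.3) on all 13 arrays, with Benjamini-Hochberg adjusted p under 0.05 over 25395 genes called. Tissue and treatment as additive terms gave the tumor effect of all mice together, and a model of 4 group means gave the other contrasts. The small number of arrays limits the precision. The procedure was also run on simulated data with independent noise on each array. Such data cannot show its error rate where samples share a mouse or a slide. No label ties samples to animals. Tumor and normal samples of the same replicate number deviated together in microRNA mice (correlation 0.42), where they also share a file-name number and a slide. In control mice they did not (-0.14 and -0.10), but there they share neither. Control tumor 3 and control normal 2, which share a file-name number and a slide, had 0.068. These values cannot tell a shared mouse from a shared slide, and the main fits took no samples as pairs.

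The members, gene lists and role classes were chosen with earlier results of these data known. Per-array values are given for Ncl, Fbl, Npm1, Polr1a, Polr1b, Ubtf, Rrn3 and Myc, for the 2 called members of each role with the largest tumor effect, and for the 3 members with the smallest unadjusted p in each microRNA contrast. Of each other list, up to 4 genes with the smallest p were named, and a gene that this rule picked among the large subunit proteins is not reported here. Alternatives were other scalings, normexp with an offset of 50, other filters, gene means over probes, fits restricted to the groups compared, eBayes with trend, the slide or the number as a block, each slide alone, and leaving out each array. The dimmer Ubtf probe, and 1 control tumor for each number in the file names, were added after seeing the data. Figures were drawn with matplotlib 3.10.9 in Python 3.11.15.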

Additional observations from a re-analysis of the deposited data

Results flagged for a closer look

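In control tumors, 2 members had 1 array far above the others, relative to the spread of the 7. Polr1c stood at 3.40 in control tumor 3, where the next highest control tumor had 2.94 and the lowest 2.62. Ddx52 stood at 2.53 in the same tumor, where the next highest had 1.84 and the lowest 1.44. Control tumor 3 was the only control tumor on slide 2, and whether the slide has a part in these values was not tested. About 1 in 20 groups is picked out by chance at this threshold, and all 40 members were examined. Neither gene passed the test for a tumor effect.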

How the results depend on the processing

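The number of members that rose in tumors over both groups of mice was 23, where 11.7% of all genes rose. It was 39 without scaling between arrays (57.4% of all genes) and 1 with the replicate number as a block (4.33%). Leaving out 1 array gave 14 to 26 (5.57% to 12.7%). In control mice it was 11 (8.18% of all genes rose). It was 3 with the array median (8.07%), 38 without scaling (47.5%) and 19 after normexp (7.39%). The compared groups alone gave 6 (7.58%) and the slide as a block 6 (4.21%). The number in the file name as a random block gave 6 (6.08%) too. None was called with the replicate block (0.949%) or with 1 control tumor per file number (1.78%). Leaving out 1 array gave at most 13 (at most 11.3%). On slide 2 alone, with 1 control tumor, the members' median was 0.816. In microRNA mice it was 1 (1.42% of all genes rose). The same changes gave 0 with the array median (1.39%), 24 without scaling (11.5%) and 5 after normexp (1.97%). The compared groups alone gave 0 (1.34%), the slide as a block 3 (2.77%) and the replicate block 0 (2.21%). The file number as a random block gave 5 (3.69%) and 1 control tumor per number 0 (0.504%). The 75th percentile over probes above background on all arrays gave 3 (1.97%). Leaving out 1 array gave at most 1 (at most 1.94%). On slide 1 and slide 2 alone, with 1 array a group, the members' median was 0.404 and 0.95. The replicate numbers are not known to mark shared mice. Replicate numbers above 2 each belong to 1 control tumor alone. With the replicate block the tumor effect therefore rested on the arrays of replicates 1 and 2. The members' median difference over both groups was 1.68 without scaling and 0.49 with the replicate block (0.60 to 0.76 when 1 array was left out). That of Myc was 1.25 to 1.41 when 1 array was left out. On slide 1 alone the same fit compares only microRNA tumor 2 with microRNA normal 2. The members' median was 0.40 there, and the difference of Myc was 1.06. No member was called for an effect of the microRNAs, in tumors, in normal tissue or as a difference between tumor effects, under any alternative that gave a value.

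Differences of 6 members that did not pass changed sign. Those on slide 1 alone are of microRNA tumor 2 minus microRNA normal 2. Polr1c was 0.71 without scaling and 0.11 on slide 2 alone, Utp20 0.68 without scaling and 0.11 on slide 1 alone, Ubtf -0.30 on slide 1 alone and -0.01 with its dimmer probe, and Bop1 and Wdr74 -0.29 and -0.30 on slide 1 alone. Rrp12 was 0.088 with the array median, 0.095 with the 75th percentile over probes above background on all arrays, 0.97 without scaling, 0.17 on slide 2 alone, 0.07 with 1 control tumor per file number, and -0.13 to 0.14 when 1 array was left out, above 0 without microRNA normal 2, microRNA tumor 2, control tumor 2 or control tumor 5. Of 1160 values of single members under the alternatives, 982 kept direction and side of the threshold, 105 no longer passed (23 of them on slide 1 alone, 22 with the replicate block and 40 on leaving out 1 array) and 56 newly passed. Apart from the alternatives that leave fewer arrays, or that rest on fewer as the replicate block does, the cause was not tested.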
